A study of Homo sapiens with 8 samples.

Results

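The collagens, laminins and integrins are the genes whose symbols name a collagen chain, a laminin chain or an integrin subunit. Selection by symbol among protein-coding genes, leaving out ITGBL1, gave 85 genes, namely 44 collagens, 12 laminins, 26 integrin subunits and 3 genes whose symbols match the integrin pattern although their products are not subunits (ITGB1BP1, ITGB1BP2 and ITGB3BP). All 85 are listed in both count tables, among 61271 genes for NCI-H647 and 46427 genes for NCI-H1944.

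RNA was sequenced from NCI-H647 and NCI-H1944, established human lung cancer cell lines whose genotype is labelled WT. In each line, 2 MPS1i libraries came from cells kept for 48 hours in BAY-1217389 at 100 nM, and 2 DMSO libraries from cells kept as long in the solvent. BAY-1217389 blocks MPS1, a kinase of the mitotic checkpoint that delays the separation of chromosomes until all are attached to the spindle. All cells were collected 24 hours after wash-out, and the comparison asked how expression was altered by the pulse of inhibitor. The NCI-H647 libraries were made after depletion of ribosomal RNA and the NCI-H1944 libraries by poly(A) selection, so line and kit cannot be told apart. The labels do not say whether the libraries of a group came from separate cultures, so the p-values here reflect no more than the scatter of the libraries, with n = 2 in each group, which may be technical.

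Collagens are triple-helical proteins of the extracellular matrix. Type IV collagen and the laminins, each a trimer of an alpha, a beta and a gamma chain, form the networks of basement membranes, whereas fibrillar collagens such as type I build the fibres of connective tissue. Integrins are surface receptors made of an alpha and a beta subunit that bind these proteins and connect them with the cytoskeleton. Normal lung epithelium rests on a basement membrane in which laminin-332, which holds the LAMA3 and LAMB3 products, is bound by the integrins alpha 3 beta 1 and alpha 6 beta 4.

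The NCI-H647 libraries held 13563037 and 13358514 counts after MPS1i and 19550859 and 17243487 counts after DMSO. The NCI-H1944 libraries were deeper, with 43661342 and 43067647 counts after MPS1i and 39332931 and 38904473 counts after DMSO. Levels are given in CPM, the counts of a gene scaled to a common library size, and 1 CPM stood for 13.6 to 19.2 counts in NCI-H647 and for 39.1 to 43.6 counts in NCI-H1944. Changes are log2 fold changes of MPS1i over DMSO ± the standard error of the fit, and a gene is called when its Benjamini-Hochberg adjusted p over all genes tested was under 0.05 in edgeR's quasi-likelihood test. Of 10 epithelial markers, the summed level in NCI-H647 was 651 to 654 CPM after MPS1i and 884 to 905 CPM after DMSO, and CDH1 (E-cadherin) and ESRP1 had at most 9 and 6 counts in a library. In NCI-H1944 the same sum was 4980.0 to 5141 CPM after MPS1i and 4283 to 4290.3 CPM after DMSO, with KRT19 at 0. Of the epithelial markers tested in NCI-H647, 3 rose and 3 fell of 8 (75% called, against 54.4% of all genes). In NCI-H1944 4 rose and 0 fell of 9 (44.4% called, against 26.0% of all genes). PTPRC, the pan-leukocyte marker CD45, had at most 8 counts in a library of NCI-H647 and was at 0 in NCI-H1944.

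Promoter sequence is shown for members around which the results turn, namely the laminin-332 chains LAMB3 and LAMA3, the anchoring fibril gene COL7A1, the laminin receptor gene ITGA6, and COL4A2, whose window overlaps that of its divergent neighbour COL4A1. The sequences are RefSeq's on GRCh38.p14, from 250 bases before to 50 bases after an annotated transcript start, written 5′ to 3′ on the strand of the gene, and 61 of the 85 members matched an entry. ITGB4 and COL6A1 were not matched. The windows lie at chr1:209652376-209652675 (minus strand) for the most upstream of 3 annotated starts of LAMB3, at chr1:209651325-209651624 (minus strand) for its most downstream start, at chr18:23872770-23873069 (plus strand) for LAMA3, at chr3:48595280-48595579 (minus strand) for COL7A1, at chr2:172427086-172427385 (plus strand) for the more upstream of 2 starts of ITGA6, and at chr13:110307034-110307333 (plus strand) for COL4A2. Capitals mark matches on either strand. The motifs searched were the AP-1 motif TGANTCA, the GC box with the letters GGGCGG, the box named for its letters CCAAT, the TEAD motif with the letters GGAATG and the interferon-stimulated response element (ISRE), and no marked match overlaps one of another motif.
LAMB3 most upstream start: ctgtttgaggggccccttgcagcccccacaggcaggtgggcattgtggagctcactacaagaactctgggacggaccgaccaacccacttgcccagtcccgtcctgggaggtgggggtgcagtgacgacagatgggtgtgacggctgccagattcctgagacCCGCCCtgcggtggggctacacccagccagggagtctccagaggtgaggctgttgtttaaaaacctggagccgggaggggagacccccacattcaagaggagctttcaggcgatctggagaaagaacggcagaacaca
LAMB3 most downstream start: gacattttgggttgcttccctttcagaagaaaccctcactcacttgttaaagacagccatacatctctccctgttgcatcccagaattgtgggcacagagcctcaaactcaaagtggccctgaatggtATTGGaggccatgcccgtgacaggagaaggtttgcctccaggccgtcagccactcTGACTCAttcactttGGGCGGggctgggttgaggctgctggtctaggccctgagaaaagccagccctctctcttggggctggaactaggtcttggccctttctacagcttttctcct
LAMA3: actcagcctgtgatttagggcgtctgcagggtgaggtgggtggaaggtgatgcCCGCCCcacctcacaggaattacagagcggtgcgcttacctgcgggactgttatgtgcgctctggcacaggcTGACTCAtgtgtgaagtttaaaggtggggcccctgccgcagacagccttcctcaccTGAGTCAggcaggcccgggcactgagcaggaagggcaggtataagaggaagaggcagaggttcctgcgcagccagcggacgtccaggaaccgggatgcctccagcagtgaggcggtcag
COL7A1: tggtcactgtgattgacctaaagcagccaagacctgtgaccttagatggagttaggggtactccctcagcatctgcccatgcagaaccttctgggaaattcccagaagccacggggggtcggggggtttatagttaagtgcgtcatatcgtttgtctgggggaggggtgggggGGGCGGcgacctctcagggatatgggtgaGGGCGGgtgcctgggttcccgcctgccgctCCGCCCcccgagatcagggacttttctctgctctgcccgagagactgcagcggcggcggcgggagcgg
ITGA6: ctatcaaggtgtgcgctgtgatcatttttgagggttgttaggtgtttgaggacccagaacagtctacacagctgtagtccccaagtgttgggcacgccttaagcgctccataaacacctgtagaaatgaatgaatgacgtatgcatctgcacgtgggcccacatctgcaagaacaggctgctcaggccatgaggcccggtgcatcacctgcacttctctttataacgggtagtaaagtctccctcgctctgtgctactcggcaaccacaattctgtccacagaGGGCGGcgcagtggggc
COL4A2: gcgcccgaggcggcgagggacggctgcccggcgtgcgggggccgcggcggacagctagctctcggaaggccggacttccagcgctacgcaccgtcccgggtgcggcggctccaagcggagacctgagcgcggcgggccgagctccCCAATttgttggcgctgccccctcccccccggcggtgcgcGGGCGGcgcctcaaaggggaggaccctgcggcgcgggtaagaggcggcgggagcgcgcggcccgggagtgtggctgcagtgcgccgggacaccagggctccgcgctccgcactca

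The most downstream LAMB3 window held 1 AP-1 match, beginning at -67 from the start, beside a GC box at -52. The LAMA3 window held 2 AP-1 matches. It was the 1 window matched for that gene and lies inside the gene, whose listed bounds begin at chr18:23689453. COL7A1 had 3 GC boxes and no AP-1 match. Over the windows of all members, 4 of 81 held an AP-1 match (4.94%), against 7.71% of 35116 windows in the whole table, and 44 of 81 held a GC box (54.3%), against 45.0% of all windows. TEAD and ISRE matches stood in 7 and 2 member windows (8.64% and 2.47%), against 14.0% and 3.57% of all windows, and CCAAT in 23 (28.4%), against 34.6%. A match describes these letters and is not evidence of binding. The RefSeq starts of COL4A1 and COL4A2 lay 127 bases apart on opposite strands, so that their windows share 226 bases.

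In the DMSO libraries ITGB1, the beta 1 subunit shared by the collagen, laminin and fibronectin receptors, had the highest level per length of all members in both lines. Per kilobase of transcript it reached 401 ± 9.08 CPM in NCI-H647 and 625 ± 0.595 CPM in NCI-H1944 (SD, n = 2 libraries each, as for all levels per kilobase here). After it came, in NCI-H647, the laminin chain genes LAMB1 (181 ± 0.139) and LAMC1 (78.0 ± 0.639), the type VI collagen genes COL6A2 (152 ± 0.254) and COL6A1 (133 ± 3.63), and the alpha subunit genes ITGA3 (149 ± 3.88), ITGAV (80.0 ± 1.18) and ITGA6 (75.7 ± 0.195), all in CPM per kilobase. COL6A2 and ITGA3 differed by less than the SD of ITGA3. In NCI-H1944 the next were ITGA3 (153 ± 1.15), ITGB4 (141 ± 3.20), LAMA5 (123 ± 0.573), LAMB2 (57.4 ± 0.0506), COL18A1 (57.0 ± 1.54) and LAMB3 (51.6 ± 0.425), in the same unit. LAMB2 and COL18A1 differed there by less than the SD of COL18A1.

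The lines held different sets of matrix genes at baseline. LAMB3 stood at 7.40 ± 0.0141 CPM per kilobase in NCI-H647 and at 51.6 ± 0.425 in NCI-H1944, and ITGB4, the partner of ITGA6 in the hemidesmosome receptor, at 4.21 ± 0.0321 in NCI-H647 and 141 ± 3.20 in NCI-H1944. COL12A1, a fibril-associated collagen, had 66.3 ± 0.772 CPM per kilobase in NCI-H647 and 2.05 ± 0.0754 in NCI-H1944. COL4A6 had 1340 and 1332 counts after MPS1i and 1683 and 1522 counts after DMSO in NCI-H647, against 23 and 24 counts after MPS1i and 18 and 12 counts after DMSO in NCI-H1944, while its divergent neighbour on the X chromosome, COL4A5, had at least 646 counts in every library of both lines. COL1A2, the second chain of type I collagen, was at 0 in all 4 NCI-H1944 libraries and had 120 and 121 counts after MPS1i and 268 and 262 counts after DMSO in NCI-H647. These levels are set side by side with no test, since the kits differ between the lines and the transcript lengths may differ from those of the annotation used for counting.

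**Figure D1:**
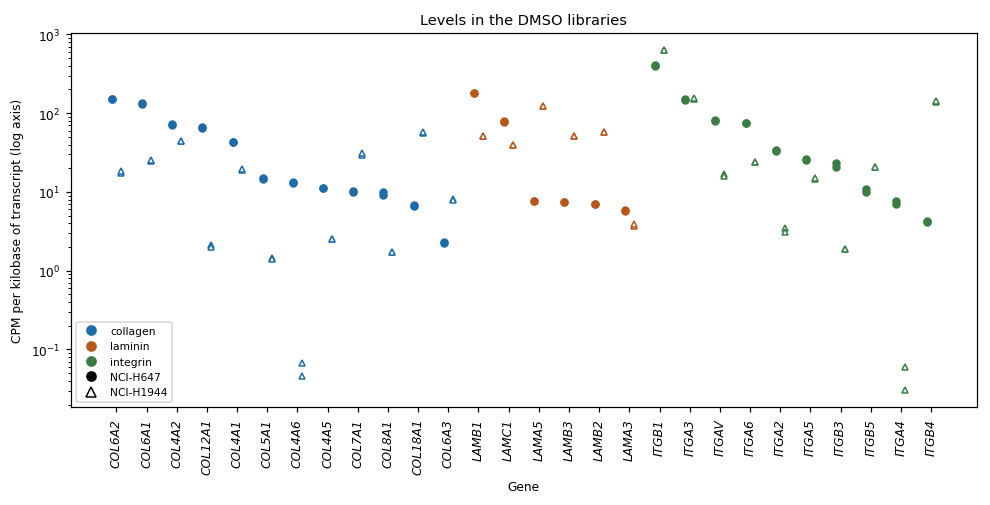
Level in each DMSO library of 28 collagens, laminins and integrins that averaged at least 5 CPM per kilobase in either line, on a log axis, with 2 filled circles per gene for NCI-H647 and 2 open triangles for NCI-H1944 (many overlap), coloured by family. ITGB1 is the highest in both lines, and ITGB4, LAMA5, LAMB3 and COL18A1 stand higher in NCI-H1944 while COL12A1, COL6A1, COL6A2 and ITGA4 stand higher in NCI-H647.

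After MPS1i, 23 members rose and 12 fell of the 57 tested in NCI-H647, which is 61.4% of them, and 54.4% of all 15049 genes tested were called in that line (27.3% higher and 27.0% lower). The members' median log2 fold change was 0.12, and that of all genes was 0.01. The members at least 2-fold higher numbered 5, among them LAMB3 and COL7A1 at high counts and COL19A1 and ITGB6 at low counts. None fell 2-fold, and over all genes 5.60% rose and 2.19% fell at least 2-fold. In NCI-H1944, 26 members rose and 3 fell of 60 tested (48.3%), where 26.0% of 16738 genes were called (13.6% higher and 12.4% lower), with a median of 0.22 for the members and 0.00 for all genes. No called member changed 2-fold in that line, where 3.11% of all genes rose and 0.227% fell at least 2-fold. The members that fell in NCI-H1944 were ITGB1, ITGB4 and ITGB3BP.

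By family, 10 collagens rose and 6 fell of 28 tested in NCI-H647, and 12 rose with none falling of 24 tested in NCI-H1944. Of the laminins 4 rose and 1 fell of 9 in NCI-H647, and 7 rose with none falling of 11 in NCI-H1944. The count of collagens and laminins that fell in NCI-H1944 was 0 in edgeR, 0 at an unadjusted p under 0.05 and 0 in DESeq2. Integrin subunits rose in 9 and fell in 3 of 18 in NCI-H647, and rose in 7 and fell in 2 of 22 in NCI-H1944. The shares called in NCI-H647 were 57.1% of collagens, 55.6% of laminins and 66.7% of integrin subunits, against 54.4% of all genes. In NCI-H1944 they were 50%, 63.6% and 40.9%, against 26.0% of all genes. The summed level of all collagens was 3623 and 3544 CPM after MPS1i and 3182 and 3211 CPM after DMSO in NCI-H647, and 1669 and 1749.8 CPM after MPS1i and 1474 and 1504 CPM after DMSO in NCI-H1944. Laminins summed to 2194 and 2178 CPM after MPS1i and 1968 and 1977 CPM after DMSO in NCI-H647, and to 2930.3 and 3036 CPM after MPS1i and 2687 and 2678 CPM after DMSO in NCI-H1944. For integrins the sum was higher after MPS1i in NCI-H647 (3826 and 3848 CPM, against 3473 and 3544 CPM after DMSO) and lower in NCI-H1944 (4066 and 4058 CPM, against 4146 and 4166 CPM after DMSO). The median log2 fold change of the integrin subunits tested in NCI-H1944 was 0.19. The subunits called lower there were the abundant ITGB1 (mean 2222 CPM after MPS1i, against 2332 after DMSO) and ITGB4 (686, against 835). Counts in a library of many cells cannot tell fewer cells that express a gene from less RNA per cell.

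**Figure D2:**
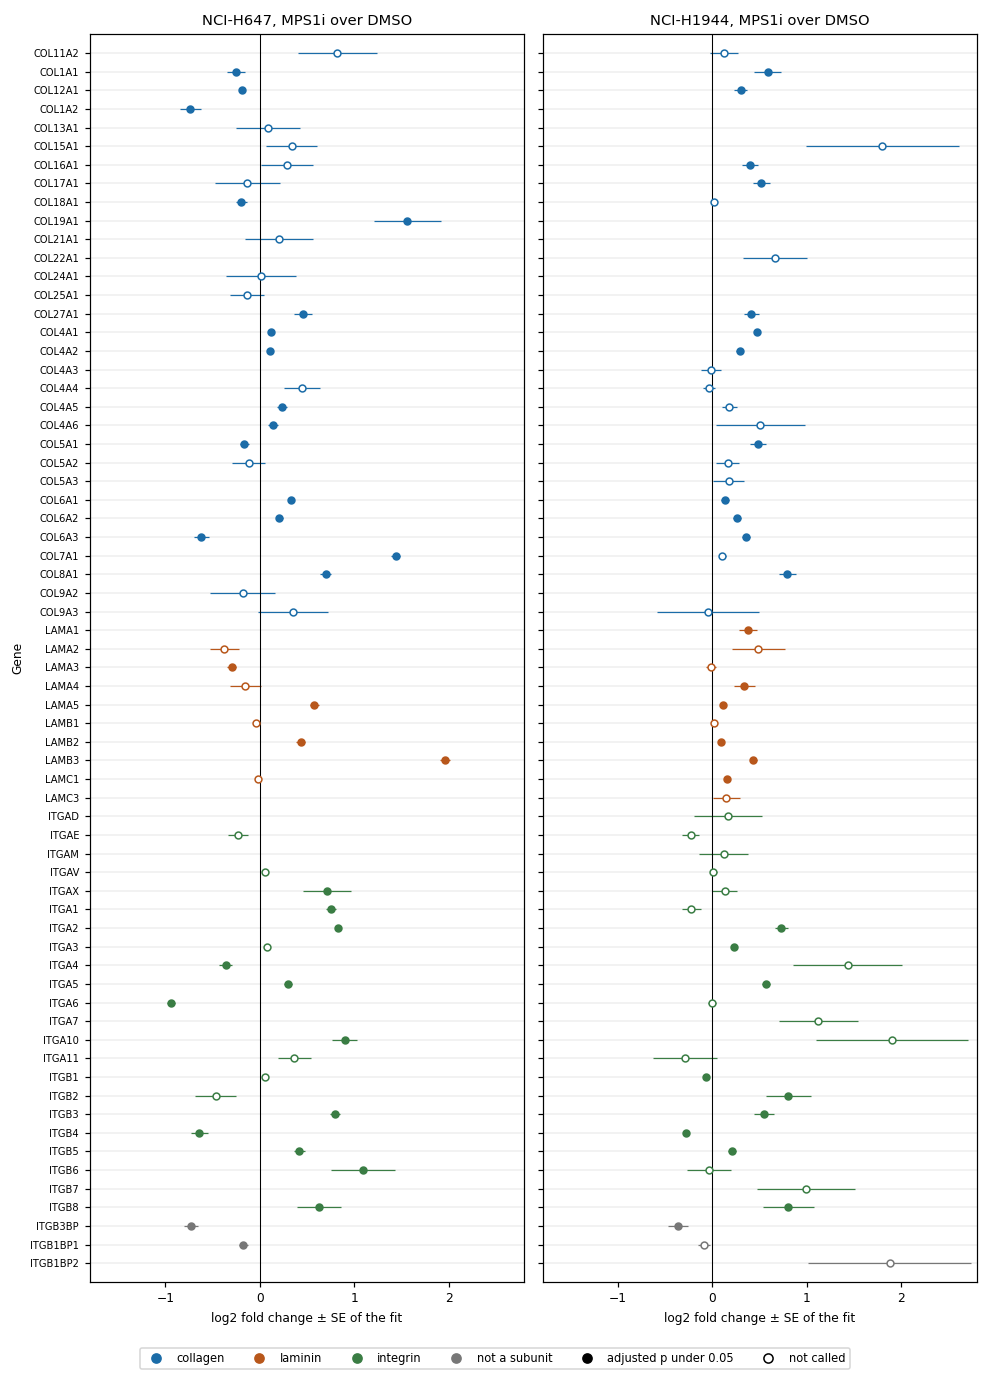
Log2 fold change of MPS1i over DMSO for the members tested in NCI-H647 (left) and NCI-H1944 (right), with bars for the standard error of the fit, coloured by family and filled where the adjusted p was under 0.05. In NCI-H647 LAMB3 stands farthest right, with COL7A1 also past 1 with a short error bar, ITGA6 stands farthest left there, and in NCI-H1944 the filled points lie right of 0 except for ITGB1, ITGB4 and ITGB3BP.

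Of the laminin-332 chain genes described here, LAMB3 rose in both lines and LAMA3 was called higher in neither. LAMB3 (ENSG00000196878, chr1:209614870-209652425, minus strand) had 126 and 123 CPM after MPS1i, against 31.8 and 31.9 CPM after DMSO in NCI-H647. Both MPS1i libraries lay far above both DMSO libraries, and the fitted change was 1.96 ± 0.05, or 3.90-fold (adjusted p = 2.31e-13), the largest change of any tested member in that line. In NCI-H1944, where its DMSO level was higher, LAMB3 had 291 and 309 CPM after MPS1i, against 221 and 223 CPM after DMSO, a change of 0.43 ± 0.03 (adjusted p = 6.68e-08). The groups did not overlap in either line. LAMA3 (ENSG00000053747, chr18:23689453-23956222, plus strand) had 50.1 and 50.8 CPM after MPS1i, against 62.2 and 61.7 CPM after DMSO in NCI-H647 and fell by 0.30 ± 0.05 on the log2 scale (adjusted p = 0.000149). In NCI-H1944 it had 40.8 and 39.4 CPM after MPS1i, against 39.6 and 41.4 CPM after DMSO, with overlapping groups and a log2 change of -0.01 ± 0.05 (adjusted p = 0.886).

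Of the receptor genes of laminin-332, ITGA6 fell in NCI-H647, ITGB4 fell in both lines and ITGA3 rose in NCI-H1944. ITGA6 (ENSG00000091409, chr2:172427354-172506459, plus strand) had 136 and 131 CPM after MPS1i, against 256 and 257 CPM after DMSO in NCI-H647. The treated libraries lay far below the DMSO libraries, a 1.92-fold fall (log2 -0.94 ± 0.04, adjusted p = 5.04e-11), the largest fall of any tested member in either line. In NCI-H1944 the same gene had 82.4 and 79.7 CPM after MPS1i, against 81.9 and 80.8 CPM after DMSO, with overlapping groups (log2 -0.01 ± 0.04, adjusted p = 0.943). ITGB4 (ENSG00000132470, chr17:75721328-75757818, plus strand), its beta partner, was low in NCI-H647, with 17.6 and 14.4 CPM after MPS1i, against 25.04 and 24.8 CPM after DMSO, and fell there by 0.64 ± 0.09 on the log2 scale (adjusted p = 2.36e-05). It was abundant in NCI-H1944, with 672 and 701 CPM after MPS1i, against 822 and 849 CPM after DMSO, and fell there by 0.28 ± 0.03 (adjusted p = 6.02e-07). Both treated libraries lay below both DMSO libraries in each line. ITGA3, which pairs with ITGB1, had 635 and 679 CPM after MPS1i, against 557 and 563 CPM after DMSO in NCI-H1944 and rose (log2 0.23 ± 0.03, adjusted p = 2.41e-05). In NCI-H647 it had 579.6 and 573 CPM after MPS1i, against 536 and 556 CPM after DMSO and was not called (log2 0.08 ± 0.03, adjusted p = 0.0548, and 0.0315 with the replicate numbers as a block). ITGA7, the muscle-type laminin receptor subunit, had 68 and 33 counts after MPS1i and 26 and 16 counts after DMSO in NCI-H1944 and was not called (log2 1.12 ± 0.42, adjusted p = 0.0587). It was called without the second MPS1i library (0.0212), without the first DMSO library (0.0138) and with the replicate numbers as a block (0.0363).

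COL7A1 (ENSG00000114270, chr3:48564073-48595329, minus strand) encodes type VII collagen, which forms the anchoring fibrils that bind laminin-332 from the stromal side. In NCI-H647 it had 265 and 248 CPM after MPS1i, against 93.8 and 95.2 CPM after DMSO. The groups were widely separated, and the gene rose 2.71-fold (log2 1.44 ± 0.05, adjusted p = 1.2e-12). In NCI-H1944 it had 287 and 315 CPM after MPS1i, against 275 and 286 CPM after DMSO and was not called (log2 0.10 ± 0.04, adjusted p = 0.0658), although it was called without the first MPS1i library (adjusted p = 0.00440) or the second DMSO library (0.0298) and with the replicate numbers as a block (0.0122). COL17A1, the transmembrane collagen of hemidesmosomes, had 14.5 and 15.4 CPM after MPS1i, against 10.7 and 10.2 CPM after DMSO in NCI-H1944 and rose there (log2 0.52 ± 0.09, adjusted p = 0.000508). It had only 16 and 15 counts after MPS1i and 27 and 18 counts after DMSO in NCI-H647, where it was not called (log2 -0.13 ± 0.35, adjusted p = 0.777). Over the 9 genes of the hemidesmosome and its laminin, which include 6 members, 2 rose and 5 fell in NCI-H647 (median -0.13), and 4 rose and 1 fell in NCI-H1944 (median 0.04). The share called was 77.8% in NCI-H647, against 54.4% of all genes, and 55.6% in NCI-H1944, against 26.0%. The plakin linker gene DST was among them, with 927 and 943 CPM after MPS1i, against 1113 and 1155 CPM after DMSO in NCI-H647, where it fell, and 101 and 98.5 CPM after MPS1i, against 86.7 and 86.2 CPM after DMSO in NCI-H1944, where it rose.

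**Figure D3:**
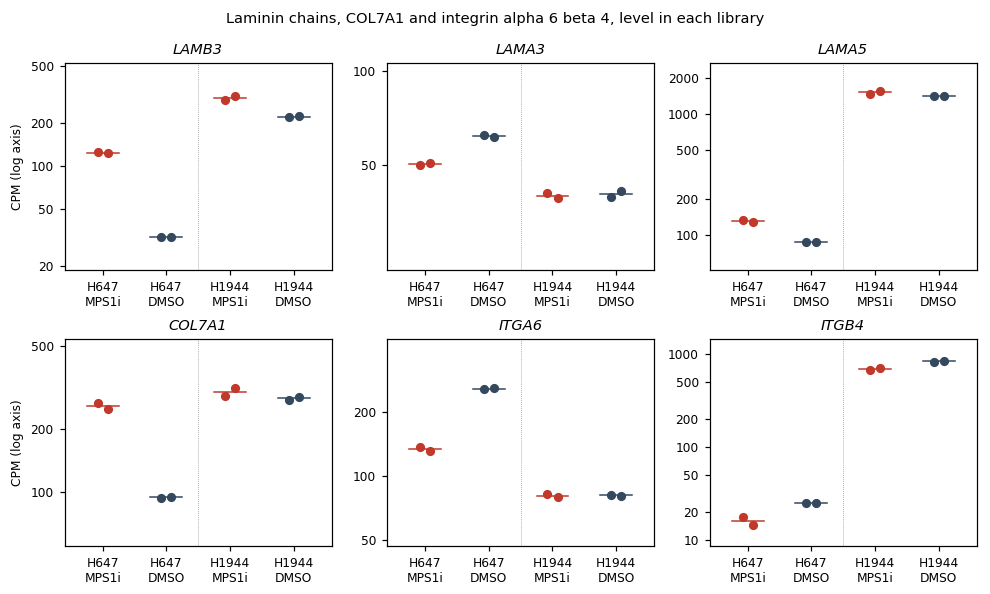
Level in each library of the laminin chain genes LAMB3, LAMA3 and LAMA5, of COL7A1 and of the integrin subunit genes ITGA6 and ITGB4, in CPM on a log axis whose range differs between panels, with red points for MPS1i, dark points for DMSO and a short line at the mean of 2 libraries. LAMB3, LAMA5 and COL7A1 were higher after MPS1i in NCI-H647 while ITGA6, ITGB4 and LAMA3 were lower there, and in NCI-H1944 LAMB3 and LAMA5 were higher, ITGB4 was lower and the others were not called.

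Among the other laminin chains, those of the laminins with alpha 5 and beta 2 chains rose more in NCI-H647 than in NCI-H1944, and the abundant LAMB1 was not called in either line. LAMA5 had 132 and 128 CPM after MPS1i, against 86.6 and 87.9 CPM after DMSO in NCI-H647 (log2 0.58 ± 0.05, adjusted p = 8.45e-08). In NCI-H1944, where it had the highest DMSO level per kilobase of the laminins, LAMA5 had 1479 and 1558 CPM after MPS1i, against 1415 and 1406 CPM after DMSO, and its rise was small (log2 0.11 ± 0.02, adjusted p = 0.00280, and 0.0851 with no low-count filter). LAMB2 had 54.3 and 53.0 CPM after MPS1i, against 39.9 and 39.6 CPM after DMSO in NCI-H647 (log2 0.43 ± 0.05, adjusted p = 2.81e-06) and 339.6 and 356 CPM after MPS1i, against 326 and 326 CPM after DMSO in NCI-H1944 (log2 0.09 ± 0.03, adjusted p = 0.0361). The NCI-H1944 call of LAMB2 was lost without the second MPS1i library (adjusted p = 0.193) and without the first (0.128) or second DMSO library (0.143). LAMB1 had 1023 and 1004 CPM after MPS1i, against 1044 and 1043 CPM after DMSO in NCI-H647 (log2 -0.04 ± 0.03, adjusted p = 0.224) and 296 and 299.9 CPM after MPS1i, against 296 and 293 CPM after DMSO in NCI-H1944 (log2 0.02 ± 0.03, adjusted p = 0.719). LAMC1, the gamma chain of most laminins, was not called in NCI-H647 (log2 -0.01 ± 0.03, adjusted p = 0.740) and rose in NCI-H1944, with 355 and 341 CPM after MPS1i, against 313 and 315 CPM after DMSO (log2 0.15 ± 0.03, adjusted p = 0.00166). The alpha chain genes LAMA1 and LAMA4 were low in NCI-H1944 and rose there by 0.38 ± 0.10 and 0.34 ± 0.11 (adjusted p = 0.00856 and 0.0322), with LAMA1 at 0.0577 in DESeq2. LAMA4 was not called without the first MPS1i library (0.246) or the second DMSO library (0.255). LAMA2, the muscle and nerve laminin chain, was not called in either line, with -0.38 ± 0.15 in NCI-H647 (adjusted p = 0.0504, and 0.0341 without its second DMSO library) and 0.48 ± 0.28 in NCI-H1944 (adjusted p = 0.238).

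Type IV collagen genes rose where they were called. In NCI-H1944 COL4A1 had 176 and 176 CPM after MPS1i, against 125 and 129 CPM after DMSO and rose by 0.47 ± 0.04 (adjusted p = 3.71e-08). COL4A2, its neighbour and usual partner in a trimer of 2 COL4A1 chains and 1 COL4A2 chain, had 338 and 362 CPM after MPS1i, against 288 and 285 CPM after DMSO and rose by 0.29 ± 0.03 (adjusted p = 9.16e-06). In each case both treated libraries were above both DMSO libraries. The ratio of COL4A1 to COL4A2 counts in NCI-H1944 was 0.521 and 0.487 after MPS1i, against 0.435 and 0.452 after DMSO, and in NCI-H647 it was 0.615 and 0.633 after MPS1i, against 0.625 and 0.611 after DMSO. In NCI-H647 COL4A1 had 309.7 and 310.2 CPM after MPS1i, against 285 and 285 CPM after DMSO and COL4A2 had 503 and 490.3 CPM after MPS1i, against 457 and 467 CPM after DMSO. These rises were small, at 0.12 ± 0.03 and 0.11 ± 0.03 (adjusted p = 0.00819 and 0.0127). Neither was called by DESeq2 (adjusted p = 0.0512 for COL4A1 and 0.0617 for COL4A2). The COL4A1 call was also lost without the first (0.0506) or the second MPS1i library (0.0601), and the COL4A2 call without the first MPS1i library (0.124) or the first DMSO library (0.101). The listed bounds of the pair overlap on opposite strands, and reads in the overlap cannot be assigned where the strand setting of the counting is not given.

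The other type IV pairs are expressed from 2 divergent loci. COL4A5 had 87.7 and 83.2 CPM after MPS1i, against 72.3 and 72.9 CPM after DMSO in NCI-H647 and rose (log2 0.23 ± 0.05, adjusted p = 0.00130), and it was not called in NCI-H1944 (log2 0.18 ± 0.08, adjusted p = 0.123). COL4A6 had 97.2 and 98.3 CPM after MPS1i, against 87.8 and 89.8 CPM after DMSO in NCI-H647, with separated groups (log2 0.14 ± 0.05, adjusted p = 0.0260). That call was lost without the first (adjusted p = 0.0827) or second MPS1i library (0.135), without the first DMSO library (0.128) and in DESeq2 (0.151). COL4A5 counts were 0.901 and 0.846 times those of COL4A6 after MPS1i, and 0.824 and 0.812 times after DMSO, in NCI-H647. COL4A3 and COL4A4, the chains of the lung and kidney network, were higher in NCI-H1944 and not called there, with -0.01 ± 0.10 and -0.04 ± 0.06 (adjusted p = 0.940 and 0.698). In NCI-H647 COL4A4 had 90 and 66 counts after MPS1i and 84 and 67 counts after DMSO, in libraries of unequal depth, and was not called (log2 0.45 ± 0.19, adjusted p = 0.0585, and 0.0268 without the second MPS1i library).

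Type VI collagen forms beaded filaments from 3 chains, and in NCI-H647 the chains went apart. COL6A1 (ENSG00000142156, chr21:45981770-46005050, plus strand) had 714 and 701 CPM after MPS1i, against 552 and 573 CPM after DMSO and rose (log2 0.33 ± 0.03, adjusted p = 4.79e-07). COL6A2, beside it on the same strand, had 627 and 592 CPM after MPS1i, against 527 and 528 CPM after DMSO and rose too (log2 0.21 ± 0.03, adjusted p = 0.000100). COL6A3 (ENSG00000163359, chr2:237324003-237414328, minus strand), the longest of the chains, had 16.3 and 15.7 CPM after MPS1i, against 24.9 and 24.1 CPM after DMSO, and it fell by 0.62 ± 0.08 on the log2 scale (adjusted p = 8.27e-06). In each case the groups did not overlap. All 3 chains rose in NCI-H1944. COL6A3 had 109.7 and 110.1 CPM after MPS1i, against 86.7 and 85.2 CPM after DMSO there (log2 0.35 ± 0.04, adjusted p = 2.76e-06), COL6A2 rose by 0.26 ± 0.05 (adjusted p = 0.000373) and COL6A1 by 0.13 ± 0.04 (adjusted p = 0.0302). The COL6A1 call in NCI-H1944 was lost without the second MPS1i library (adjusted p = 0.195), without the first DMSO library (0.213) and in DESeq2 (0.0600). COL6A5 was at 0 in every library, and COL6A6 had 1 count in all.

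Fibrillar collagens fell in NCI-H647 in 3 of 7 tested and rose in 1, where 27.0% of all genes fell and 27.3% rose. They rose in 3 of 6 in NCI-H1944, where 13.6% of all genes did. COL1A1, a chain of type I collagen, had 13.8 and 13.9 CPM after MPS1i, against 15.9 and 17.2 CPM after DMSO in NCI-H647 and fell by 0.25 ± 0.10 on the log2 scale (adjusted p = 0.0355). That call was lost without either MPS1i library (adjusted p = 0.0900 without the first and 0.0871 without the second), without the second DMSO library (0.161) and in DESeq2 (0.264). In NCI-H1944 COL1A1 had 5.99 and 6.82 CPM after MPS1i, against 4.09 and 4.45 CPM after DMSO and rose (log2 0.59 ± 0.14, adjusted p = 0.00587, and 0.0597 without the second MPS1i library). COL1A2 had 8.71 and 8.93 CPM after MPS1i, against 14.0 and 15.5 CPM after DMSO in NCI-H647, where it fell 1.66-fold (log2 -0.74 ± 0.11, adjusted p = 6.11e-05). COL5A1, which starts and sizes type I fibrils, had 113 and 112 CPM after MPS1i, against 123 and 129 CPM after DMSO in NCI-H647, a small fall (log2 -0.16 ± 0.05, adjusted p = 0.00758), and 17.0 and 16.7 CPM after MPS1i, against 12.4 and 11.8 CPM after DMSO in NCI-H1944, a rise (log2 0.48 ± 0.09, adjusted p = 0.000552). COL27A1, a fibrillar collagen of cartilage, rose in both lines, by 0.46 ± 0.09 in NCI-H647 and by 0.41 ± 0.08 in NCI-H1944 (adjusted p = 0.000583 and 0.00148). COL3A1, which stromal fibroblasts express with type I collagen, had at most 6 counts in any library of either line.

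Beside these genes, markers of fibroblasts moved in NCI-H1944. Of 8 such markers other than collagens 4 were tested there, and LUM, DCN and FAP rose, with a summed level of the 8 of 41.7 to 42.9 CPM after MPS1i and 26.8 to 30.5 CPM after DMSO. Of the 4 tested 75% were called, against 26.0% of all genes. PDGFRA and POSTN, which mark fibroblasts, were at 0 in all 4 libraries. In NCI-H647 the 4 tested (LUM, FAP, PDGFRB and POSTN) had adjusted p-values between 0.141 and 0.425, and the list summed to 22.2 to 22.4 CPM after MPS1i and 18.3 to 22.2 CPM after DMSO. Their part in the collagen values was not tested. Of 6 genes of the mesenchymal state, ZEB2 rose and VIM fell in NCI-H647, and SNAI2, CDH2 and ZEB2 rose in NCI-H1944. That is 33.3% called in NCI-H647, against 54.4% of all genes, and 50% in NCI-H1944, against 26.0%. Their summed level in NCI-H647 was 2440 to 2495 CPM after MPS1i and 3161 to 3210 CPM after DMSO. In NCI-H1944 the sum was 331.6 to 332.4 CPM after MPS1i and 323.6 to 327.8 CPM after DMSO. Endothelial markers summed to 27.6 to 31.1 CPM after MPS1i and 31.2 to 34.4 CPM after DMSO in NCI-H647. Of 3 tested there, 1 rose and 1 fell (66.7% called, against 54.4% of all genes). In NCI-H1944 they summed to 2.15 to 2.18 CPM after MPS1i and 0.79 to 1.09 CPM after DMSO. The 1 marker tested there rose, where 26.0% of all genes were called.

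COL12A1, which decorates type I fibrils, had 684 and 685 CPM after MPS1i, against 784 and 771 CPM after DMSO in NCI-H647. The treated libraries lay below the controls, and the fall was small (log2 -0.18 ± 0.03, adjusted p = 9.12e-05). In NCI-H1944 it had 29.7 and 29.3 CPM after MPS1i, against 24.6 and 23.4 CPM after DMSO and rose (log2 0.30 ± 0.07, adjusted p = 0.00316). COL16A1, another fibril-associated collagen, rose in NCI-H1944 by 0.39 ± 0.08 (adjusted p = 0.00234). COL19A1, of the same class, had 28 and 33 counts after MPS1i and 11 and 16 counts after DMSO in NCI-H647 (log2 1.56 ± 0.35, adjusted p = 0.00154) and was at 0 in NCI-H1944. The short-chain collagen gene COL8A1, whose product forms lattices in vessel walls and the cornea, rose in both lines. It had 85.5 and 93.0 CPM after MPS1i, against 57.0 and 52.8 CPM after DMSO in NCI-H647 (log2 0.70 ± 0.06, adjusted p = 9.84e-08) and 17.4 and 16.6 CPM after MPS1i, against 9.75 and 9.91 CPM after DMSO in NCI-H1944 (log2 0.79 ± 0.09, adjusted p = 5.05e-06). COL15A1, a multiplexin, had 23 and 16 counts after MPS1i and 0 and 10 counts after DMSO in NCI-H1944 and was not called in either line. Its log2 change in NCI-H1944 was 1.80 ± 0.81, and 7.25 without the second DMSO library, which leaves the control at 0. COL18A1, the basement membrane collagen from which endostatin is released, fell in NCI-H647 (log2 -0.20 ± 0.06, adjusted p = 0.0116) and was not called in NCI-H1944 (log2 0.02 ± 0.03, adjusted p = 0.793). Its call in NCI-H647 was lost without the second MPS1i library (adjusted p = 0.138), without the first DMSO library (0.0582) and in DESeq2 (0.163).

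**Figure D4:**
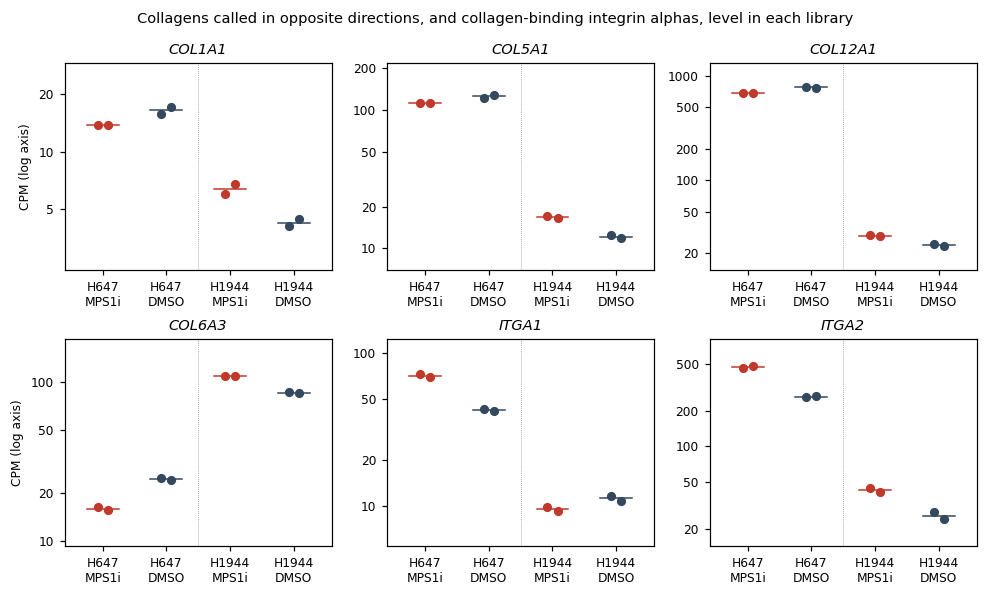
Level in each library of the 4 collagens that fell in NCI-H647 and rose in NCI-H1944 (COL1A1, COL5A1, COL12A1 and COL6A3) and of the collagen-binding integrin genes ITGA1 and ITGA2, in CPM on a log axis whose range differs between panels, with red points for MPS1i, dark points for DMSO and a short line at the mean of 2 libraries. COL6A3 shows the widest gap of the 4 collagens in NCI-H647, with 16.3 and 15.7 CPM after MPS1i against 24.9 and 24.1 CPM after DMSO, and ITGA2 was higher after MPS1i in both lines.

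Of the 4 alpha subunits that pair with ITGB1 to bind collagen, 3 rose in NCI-H647, where 27.3% of all genes did, and 1 in NCI-H1944, where 25% of the 4 were called against 26.0% of all genes. ITGA2 (ENSG00000164171, chr5:52989340-53094779, plus strand) had 461 and 477 CPM after MPS1i, against 263 and 265 CPM after DMSO in NCI-H647. The groups stood well apart, with a 1.78-fold rise (log2 0.83 ± 0.03, adjusted p = 2.81e-11). In NCI-H1944 it had 44.2 and 41.3 CPM after MPS1i, against 27.5 and 24.1 CPM after DMSO, a 1.66-fold rise (log2 0.73 ± 0.07, adjusted p = 6.05e-07). ITGA1 (ENSG00000213949, chr5:52787916-52959209, plus strand), listed on the same strand and upstream of ITGA2, had 72.0 and 69.6 CPM after MPS1i, against 42.6 and 41.3 CPM after DMSO in NCI-H647 and rose 1.69-fold (log2 0.75 ± 0.05, adjusted p = 1.08e-08). In NCI-H1944 ITGA1 had 9.83 and 9.21 CPM after MPS1i, against 11.6 and 10.7 CPM after DMSO, below the controls in both libraries, and was not called (log2 -0.23 ± 0.10, adjusted p = 0.118). ITGA10 had 12.8 and 14.2 CPM after MPS1i, against 6.68 and 7.90 CPM after DMSO in NCI-H647 and rose (log2 0.90 ± 0.13, adjusted p = 2.62e-05), and in NCI-H1944 it had 27 and 15 counts after MPS1i and 0 and 10 counts after DMSO and was not called (adjusted p = 0.0982). Without the second DMSO library, which leaves the control at 0, it was called (adjusted p = 0.000846). ITGA11 was not called in either line (adjusted p = 0.0917 in NCI-H647 and 0.597 in NCI-H1944).

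ITGB1 itself hardly moved. It had 1548 and 1573 CPM after MPS1i, against 1472 and 1520.3 CPM after DMSO in NCI-H647 (log2 0.06 ± 0.03, adjusted p = 0.0857), and of the alternatives tried it was called only with the replicate numbers as a block (0.0383). In NCI-H1944 it had 2263 and 2181 CPM after MPS1i, against 2334 and 2331 CPM after DMSO and was called lower by 0.07 ± 0.02 on the log2 scale (adjusted p = 0.0136, and 0.0766 without the second MPS1i library). The pseudogene ITGB1P1 resembles ITGB1, so that a share of its reads is uncertain. In NCI-H647 ITGB1P1 had 39.4 and 56.2 CPM after MPS1i, against 35.4 and 38.6 CPM after DMSO. It was called higher there (log2 0.37 ± 0.11, adjusted p = 0.00978). In NCI-H1944 the pseudogene had 22.1 and 21.4 CPM after MPS1i, against 21.9 and 22.1 CPM after DMSO, and was not called (adjusted p = 0.889).

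Integrins that bind the RGD motif of fibronectin and vitronectin rose in 5 of 6 tested in NCI-H647, where 27.3% of all genes rose, and in 4 of 6 in NCI-H1944, where 13.6% did. ITGA5, the alpha subunit of the fibronectin receptor, had 144 and 138 CPM after MPS1i, against 113 and 117 CPM after DMSO in NCI-H647 (log2 0.30 ± 0.05, adjusted p = 6.27e-05) and 95.2 and 101 CPM after MPS1i, against 65.2 and 67.1 CPM after DMSO in NCI-H1944 (log2 0.57 ± 0.04, adjusted p = 5.23e-08). ITGB3, a partner of ITGAV, had 153 and 151 CPM after MPS1i, against 91.9 and 83.1 CPM after DMSO in NCI-H647 (log2 0.80 ± 0.05, adjusted p = 7e-09) and 10.5 and 11.5 CPM after MPS1i, against 7.62 and 7.44 CPM after DMSO in NCI-H1944 (log2 0.55 ± 0.11, adjusted p = 0.00103). Groups did not overlap for either gene. ITGB5, another beta partner of ITGAV, rose by 0.42 ± 0.06 in NCI-H647 and by 0.21 ± 0.04 in NCI-H1944 (adjusted p = 1.85e-05 and 0.000933). ITGAV had 586 and 587 CPM after MPS1i, against 556 and 568 CPM after DMSO in NCI-H647 and 119 and 115 CPM after MPS1i, against 119 and 113 CPM after DMSO in NCI-H1944 and was called in neither line (adjusted p = 0.109 and 0.896). ITGB6 and ITGB8 encode partners of ITGAV that activate TGF-beta, and both were low. ITGB6 had 28 and 37 counts after MPS1i and 16 and 24 counts after DMSO in NCI-H647, a 2.13-fold rise (log2 1.09 ± 0.34, adjusted p = 0.0125). It was not called without the second MPS1i library (adjusted p = 0.147), without the first DMSO library (0.133) or by DESeq2 (0.0916), and in NCI-H1944 it was not called (log2 -0.04 ± 0.23, adjusted p = 0.938). ITGB8 had 81 and 50 counts after MPS1i and 62 and 50 counts after DMSO in NCI-H647, and 117 and 81 counts after MPS1i and 60 and 43 counts after DMSO in NCI-H1944. It was called higher in both (adjusted p = 0.0340 and 0.0373). In NCI-H647 that call was lost without the first MPS1i library (0.505) and without the second DMSO library (0.0590), and in NCI-H1944 without the first MPS1i library (0.320) and without the second DMSO library (0.170).

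Integrins known from leukocytes were low, apart from ITGA4 in NCI-H647, at 7.36 ± 0.353 CPM per kilobase after DMSO. Of these, 1 rose and 1 fell of 4 tested in NCI-H647 (50% called, against 54.4% of all genes), and 1 rose of 7 in NCI-H1944 (14.3%, against 26.0%). ITGA4, a receptor subunit for VCAM1 and fibronectin, had 22.8 and 25.3 CPM after MPS1i, against 31.9 and 29.8 CPM after DMSO in NCI-H647 and fell by 0.36 ± 0.07 on the log2 scale (adjusted p = 0.000574). In NCI-H1944 it had 28 and 17 counts after MPS1i and 10 and 5 counts after DMSO and was not called (log2 1.43 ± 0.58, adjusted p = 0.0834). ITGB2, the beta subunit of leukocyte integrins, had 146 and 119 counts after MPS1i and 84 and 54 counts after DMSO in NCI-H1944 (log2 0.80 ± 0.24, adjusted p = 0.0205). This rise was not called without the first MPS1i library (adjusted p = 0.153), without the second DMSO library (0.156) or by DESeq2 (0.0798), and in NCI-H647 ITGB2 was not called (log2 -0.47 ± 0.22, adjusted p = 0.0823, and 0.04004 without the first MPS1i library). ITGAX, the alpha subunit CD11c, had 43 and 44 counts after MPS1i and 33 and 37 counts after DMSO in NCI-H647 (log2 0.71 ± 0.26, adjusted p = 0.0284). Without the first MPS1i, the second MPS1i or the first DMSO library its adjusted p was 0.0890, 0.113 and 0.192. ITGAE, which pairs with ITGB7 to bind E-cadherin, had log2 changes of -0.23 ± 0.10 in NCI-H647 (adjusted p = 0.0679, and 0.0426 without the second DMSO library) and -0.23 ± 0.09 in NCI-H1944 (adjusted p = 0.0744), and was called in neither. Beside the ITGB2 and ITGAX values, 3 of 3 tested leukocyte markers rose in NCI-H647, ITGAX among them, where 27.3% of all genes rose. The list summed there to 229 to 230.3 CPM after MPS1i and 151 to 152 CPM after DMSO. In NCI-H1944 2 of 5 rose, where 13.6% of all genes did. The members ITGAX and ITGAM were among these 5 and were not called. The sum in NCI-H1944 was 172 to 177 CPM after MPS1i and 78.2 to 82.7 CPM after DMSO. CD68, a lysosomal protein gene, made up most of both sums, while PTPRC was at 0 in NCI-H1944, and their part in the result was not tested.

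Of the 3 genes that share the integrin pattern without encoding a subunit, none was called higher by edgeR or by DESeq2. ITGB3BP, a centromere protein gene, had 17.5 and 17.2 CPM after MPS1i, against 29.4 and 28.1 CPM after DMSO in NCI-H647 (log2 -0.73 ± 0.07, adjusted p = 6.95e-07) and 9.51 and 8.46 CPM after MPS1i, against 11.8 and 11.4 CPM after DMSO in NCI-H1944 (log2 -0.37 ± 0.10, adjusted p = 0.0146), and fell in both. The NCI-H1944 call was lost without the second MPS1i library (adjusted p = 0.122) and in DESeq2 (0.0843). ITGB1BP1, whose product binds the tail of beta 1 integrin, was slightly lower in NCI-H647 (log2 -0.17 ± 0.05, adjusted p = 0.00977, and 0.118 in DESeq2) and was not called in NCI-H1944 (adjusted p = 0.371, and 0.0459 without the first MPS1i library). ITGB1BP2 was not tested in NCI-H647. In NCI-H1944 it had 16 and 13 counts after MPS1i and 7 and 0 counts after DMSO and was not called (log2 1.88 ± 0.86, adjusted p = 0.129). Without the first DMSO library, which leaves the control at 0, its log2 change was 6.82.

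The difference of the responses was tested for the 50 members that passed the filter in both lines, as NCI-H647 minus NCI-H1944. It was called for 27 of them, 10 with a higher and 17 with a lower response in NCI-H647, where 40.1% of 12887 genes were called (17.4% higher and 22.7% lower). The median difference was -0.12 for the members and -0.04 for all genes. LAMB3 differed most on the upper side (1.51 ± 0.06, adjusted p = 5.37e-15), and COL7A1 came next (1.31 ± 0.06, adjusted p = 7.03e-14), so that both rose more in NCI-H647. ITGA1 (0.96 ± 0.10, adjusted p = 6.94e-08), LAMA5 (0.45 ± 0.05), LAMB2 (0.32 ± 0.06) and COL6A1 (0.18 ± 0.05) also had the higher response in NCI-H647. On the lower side ITGA6 differed by -0.96 ± 0.05 (adjusted p = 1.04e-12) and COL6A3 by -0.995 ± 0.09 (adjusted p = 8.37e-09). ITGA4 (-1.81 ± 0.42, adjusted p = 0.00149) and ITGB2 (-1.29 ± 0.34, adjusted p = 0.00458) had larger differences on low counts in NCI-H1944.

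Members called lower in NCI-H647 and higher in NCI-H1944 numbered 4 of 50, all collagens, and none went the other way, where 1.78% and 1.33% of the 12887 genes did so. They were COL6A3, COL1A1 (-0.86 ± 0.17, adjusted p = 0.000349), COL5A1 (-0.67 ± 0.08, adjusted p = 1.25e-06) and COL12A1 (-0.50 ± 0.05, adjusted p = 1.29e-07), and each difference was called under every alternative tried. The COL1A1 call of the fall in NCI-H647 was the least stable of them, as given above. A further 15 members were higher in both lines and 2, ITGB4 and ITGB3BP, lower in both, against 9.47% and 9.75% of all genes. COL4A1 (-0.37 ± 0.04, adjusted p = 4.04e-07) and COL4A2 (-0.21 ± 0.05, adjusted p = 0.00121) rose less in NCI-H647. The receptors ITGA3 (-0.18 ± 0.05, adjusted p = 0.00437) and ITGA5 (-0.29 ± 0.06, adjusted p = 0.000399) and the laminin chain LAMC1 (-0.19 ± 0.04, adjusted p = 0.00144) also had the lower response in NCI-H647. For ITGA2 the difference was 0.08 ± 0.07 (adjusted p = 0.368) and for COL8A1 -0.11 ± 0.10 (adjusted p = 0.374), and neither was called.

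**Figure D5:**
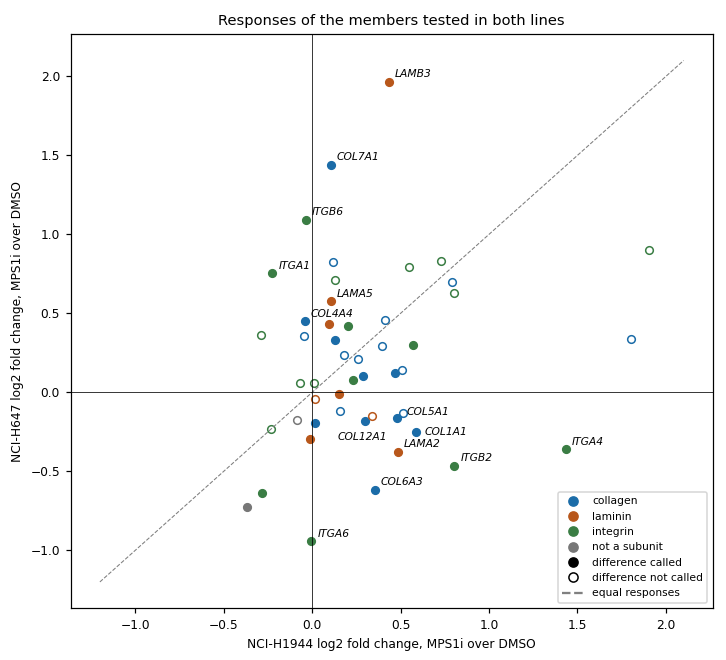
Log2 fold change of MPS1i over DMSO in NCI-H647 (vertical axis) against that in NCI-H1944 (horizontal axis) for 49 of the 50 members tested in both, coloured by family, filled where the difference between the lines was called, with a dashed line where both responses are equal; called members whose difference was over 0.4 on the log2 scale are named. Among the called members, LAMB3 and COL7A1 lie farthest above the dashed line, and ITGA4, ITGB2, COL6A3 and ITGA6 lie farthest below it.

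Genes that make, bind or signal through the members were read as lists, beside the 54.4% of all genes called in NCI-H647 (27.3% higher, 27.0% lower) and the 26.0% in NCI-H1944 (13.6% higher, 12.4% lower). Of 29 tested genes of collagen folding, modification and secretion 15 rose and 5 fell in NCI-H647 (median 0.14), and 12 rose and 2 fell of 28 in NCI-H1944 (median 0.11), which is 69.0% and 50% called. PLOD2, a lysyl hydroxylase, had 440.4 and 452 CPM after MPS1i, against 308 and 313 CPM after DMSO in NCI-H647 and 211 and 196 CPM after MPS1i, against 144 and 149 CPM after DMSO in NCI-H1944. P4HA2, a prolyl hydroxylase subunit, rose by 0.80 ± 0.05 in NCI-H647, and MIA3, which exports collagen from the endoplasmic reticulum, by 0.55 ± 0.04. The related exporter gene MIA2 fell in NCI-H1944 (log2 -0.25 ± 0.04). Partners of the basement membrane and other matrix ligands rose in 13 and fell in 5 of 20 in NCI-H647 (median 0.19), and rose in 11 of 19 with none falling in NCI-H1944 (median 0.38), or 90% and 57.9% called. NID2, which links laminin with type IV collagen, had 131 and 131 CPM after MPS1i, against 63.1 and 61.3 CPM after DMSO in NCI-H647, and FN1 (fibronectin), a ligand of alpha 5 beta 1 integrin, had 47.0 and 46.9 CPM after MPS1i, against 24.3 and 26.2 CPM after DMSO in NCI-H1944. The ligand genes SPP1 (osteopontin) and VTN (vitronectin) rose there by 0.48 ± 0.01 and 1.05 ± 0.09, and EDIL3, an RGD ligand, fell in NCI-H647 (log2 -0.51 ± 0.05).

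Among other receptors of collagen and laminin, 4 rose and 4 fell of 10 in NCI-H647 (median 0.01), and 3 rose and 1 fell of 11 in NCI-H1944 (median -0.03). The shares called were 80.0% and 36.4%, against 54.4% and 26.0% of all genes. SDC4, a syndecan of focal adhesions, rose in both lines, with 80.2 and 82.8 CPM after MPS1i, against 47.5 and 47.0 CPM after DMSO in NCI-H647 and 133 and 138 CPM after MPS1i, against 71.4 and 70.8 CPM after DMSO in NCI-H1944. RPSA, a ribosomal protein also described as a laminin receptor, fell in both (log2 -0.73 ± 0.04 in NCI-H647 and -0.19 ± 0.03 in NCI-H1944). Of 30 tested integrin adaptors and adhesion kinases 8 rose and 13 fell in NCI-H647 (median -0.10), and 8 rose and 6 fell in NCI-H1944 (median 0.05). That is 70.0% called in NCI-H647, with a share higher near the 27.3% of all genes, and 46.7% in NCI-H1944. ACTN4, an actin cross-linker, had 933 and 925 CPM after MPS1i, against 1269.9 and 1264 CPM after DMSO in NCI-H647, where it fell, and 929 and 965 CPM after MPS1i, against 824 and 849 CPM after DMSO in NCI-H1944, where it rose. VCL (vinculin) and the tensin gene TNS3 fell in NCI-H647 by 0.36 ± 0.04 and 0.48 ± 0.04 on the log2 scale, and FERMT1, which activates integrins, fell in NCI-H1944 by 0.34 ± 0.04.

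COL5A2, COL5A3, COL9A2, COL9A3, COL11A2, COL13A1, COL21A1, COL22A1, COL24A1, COL25A1, LAMC3, ITGAD, ITGAM and ITGB7 were tested in at least 1 line and were not called, by edgeR or under any alternative tried. The remaining members gave no test. In NCI-H647, 7 of the 85 were at 0 in every library and 21 had counts but did not pass the filter, with at most 11 counts in a library. In NCI-H1944 the numbers were 8 and 17, with at most 13 counts in a library. Both lines together left 18 members untested in either, among them the cartilage collagens COL2A1 and COL11A1 and the fibrillar COL3A1. Over a group of libraries, a member at 0 was below a floor of 3 counts, which covers counting error only.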

How the data were processed

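Gene counts were deposited by the authors in 1 table per line, as raw whole-number counts per gene and library. Per the submitters' processing notes, the tools included STAR, HISAT2, featureCounts, StringTie, Trimmomatic, Trim Galore and cutadapt, and the build was GRCh38. The sources used here give neither versions nor the annotation release or strand setting, and do not say which tool made which table. Where a symbol had several rows, the row with the most counts was used.

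Counts were analysed in R 4.3.3 with edgeR 4.0.16, on genes kept by filterByExpr (minimum count 10, minimum total 15), with TMM scaling and the quasi-likelihood test, MPS1i over DMSO within each line. The difference between lines was the interaction term of 1 fit to 12887 shared symbols. P-values were adjusted over all genes tested, by Benjamini-Hochberg. The biological coefficient of variation was 3.54% in NCI-H647 and 3.99% in NCI-H1944. The fits were tested on simulated data. Depth limits a member at 0 to under 3 counts per group. Lengths for levels per kilobase are those of the GENCODE v29 transcript with the longest coding sequence, and the gene bounds of 20 of 85 members were the same in that release and the NCI-H647 table, so these levels are approximate. Coordinates of genes are from the NCI-H647 table.

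DESeq2 1.42.0, its size factors in edgeR, no low-count filter, a replicate block and leaving out each library were the alternatives. The members and lists were chosen with earlier results of these data known. Any member could be named. Values per library were planned for the 6 largest called rises and falls per line, the 5 largest called differences on each side and the 6 highest DMSO levels. They were also planned for a list of 22 members given whatever their outcome. For some of these, such as LAMA2, the values per library are not given above. Genes of related lists were named where their adjusted p was among the 4 smallest. The values of 1 member, counted in the totals, are not reported here.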

Additional observations from a re-analysis of the deposited data

Results flagged for a closer look

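The response to MPS1i differed between the lines for 27 of the 50 members tested in both, by the interaction term of edgeR's quasi-likelihood fit (adjusted p under 0.05), where 40.1% of 12887 genes did. The values are log2 differences, NCI-H647 minus NCI-H1944, each from 2 libraries in each of 4 groups.

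Of the laminins, LAMB3 (1.51), LAMA5 (0.45) and LAMB2 (0.32) had the higher response in NCI-H647, and LAMA2 (-0.88), LAMA3 (-0.31) and LAMC1 (-0.19) the lower one. Of the collagens, COL7A1 (1.31), COL4A4 (0.47) and COL6A1 (0.18) had the higher response in NCI-H647. The response there was lower for COL6A3 (-0.995), COL1A1 (-0.86), COL5A1 (-0.67), COL12A1 (-0.50), COL4A1 (-0.37), COL18A1 (-0.23) and COL4A2 (-0.21). Of the integrin subunits, ITGB6 (1.11), ITGA1 (0.96) and ITGB5 (0.19) had the higher response in NCI-H647. The response there was lower for ITGA4 (-1.81), ITGB2 (-1.29), ITGA6 (-0.96), ITGB4 (-0.38), ITGA5 (-0.29) and ITGA3 (-0.18). The centromere protein gene ITGB3BP differed by -0.38.

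Of these differences 20 were called under every alternative tried and 7 were not. LAMA2 had an adjusted p of 0.0557 without the second MPS1i and 0.0916 without the first DMSO library of NCI-H1944, and of 0.0751 without the first MPS1i, 0.0633 without the second MPS1i and 0.116 without the first DMSO library of NCI-H647. COL4A4 was not called without the second MPS1i (0.0832) or second DMSO library (0.0879) of NCI-H1944, nor without the first MPS1i (0.428), first DMSO (0.0642) or second DMSO library (0.171) of NCI-H647. COL18A1 was lost without the second MPS1i (0.164) or first DMSO library (0.0891) of NCI-H647, and ITGB4 without the second MPS1i library of that line (0.0794). ITGB6 was lost without the first MPS1i (0.0908) or second DMSO library (0.131) of NCI-H1944 and without the second MPS1i (0.205) or first DMSO library (0.236) of NCI-H647. For ITGB5 the adjusted p was 0.129, 0.100 and 0.0963 without the first MPS1i, first DMSO and second DMSO library of NCI-H1944, and 0.206 and 0.237 without the second MPS1i and second DMSO library of NCI-H647. ITGB3BP gave 0.0890 and 0.0529 without the first MPS1i and second DMSO library of NCI-H1944, and 0.0526, 0.0700 and 0.1000 without the first MPS1i, second MPS1i and first DMSO library of NCI-H647. DESeq2 did not call the differences of COL4A4 (0.0781), LAMA2 (0.0794), ITGB5 (0.0702), ITGB6 (0.108) and ITGB3BP (0.125). With no low-count filter ITGB5 (0.0545) and ITGB6 (0.0537) were lost, and with the replicate numbers as a block ITGB5 was (0.0550). Line and library kit cannot be told apart in these differences.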

How the results depend on the processing

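No call, of a member or of a difference, changed sign under an alternative. Members that were not called, and whose sign turned under at least 1 alternative, were COL13A1, COL16A1, COL17A1, COL21A1, COL24A1 and COL5A2 in NCI-H647, COL18A1, COL4A3, COL4A4, COL9A3, ITGA6, ITGAD, ITGAM, ITGAV, ITGB1BP1, ITGB6 and LAMA3 in NCI-H1944 and, for the difference, COL16A1, COL27A1, COL4A5, COL9A3, ITGA2, ITGAE, ITGAV, ITGB1BP1 and ITGB8. Of the calls, 26 of 35 in NCI-H647, 19 of 29 in NCI-H1944 and 20 of 27 differences held under every alternative. The members called lower in NCI-H1944 numbered 3, and 1 with no low-count filter and 1 without the second MPS1i library; the cause was not tested. With 1 library left out, which assumes that the lone library of a group varies like the other group's, members called ranged from 30 to 35 in NCI-H647 (19 to 22 higher, 10 to 13 lower) and from 25 to 29 in NCI-H1944 (24 to 26 higher, 1 to 4 lower), and differences from 21 to 27 (7 to 10 higher, 13 to 18 lower). DESeq2 called 26 members in NCI-H647 (17 higher, 9 lower), 23 in NCI-H1944 (21 and 2) and 23 differences (8 and 15). With no low-count filter 30, 20 and 27 were called. Over all genes, DESeq2 called 5446 in NCI-H647, against 8184 with edgeR, and edgeR without the filter called 2325 in NCI-H1944, against 4346, the number of genes tested being larger. Calls of NCI-H1944 that DESeq2 did not make were COL6A1, ITGB2, ITGB3BP, ITGB8, LAMA1 and LAMA4, and those lost with no filter were COL1A1, COL6A1, ITGB1, ITGB2, ITGB3BP, ITGB8, LAMA4, LAMA5 and LAMB2. In NCI-H647 DESeq2 did not call COL18A1, COL1A1, COL4A1, COL4A2, COL4A6, ITGAX, ITGB1BP1, ITGB6 and ITGB8, and COL18A1, COL4A1, COL4A2, COL4A6 and ITGB8 were lost with no filter. Same-numbered libraries did not deviate together (correlation -0.04 in NCI-H647 and 0.02 in NCI-H1944), and the replicate block gave 37 calls in NCI-H647, 31 in NCI-H1944 and 27 differences. Differences not called in the fit given, but called under at least 1 alternative, were ITGB1, ITGB3, LAMA4, ITGA10 and COL15A1. Depth limits the members with few counts, since 57 of 85 passed the low-count filter in NCI-H647 and 60 in NCI-H1944.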
